A study of Homo sapiens with 4 samples.

Results

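The intervals described here lie at and beside the centromeres of 4 chromosomes. They were read out by ATAC-seq, an assay of open DNA by transposase insertion, in TMD8 cells, an established line of the activated B cell-like (ABC) type of diffuse large B cell lymphoma. The libraries fall into 2 groups of 2: shIRF4, cells with a short hairpin RNA (shRNA) against the transcription factor gene IRF4, and control, cells with a scrambled shRNA. No time point, dose or hairpin sequence is given for either group, both groups come from the same line, and the library names of the first group read siIRF4 where the titles read shIRF4. Nothing in the labels says whether the 2 libraries of a group come from separate cultures, so the spread between them may be technical. The members were taken by position alone on build hg38: intervals (merged peaks) whose midpoint lies between 121.7 and 125.2 Mb of chromosome 1, 91.0 and 95.0 Mb of chromosome 2, 49.0 and 51.8 Mb of chromosome 4, or 16 and 18.1 Mb of chromosome 13. They number 854 of 73135 intervals, with 571 on chromosome 1, 40 on chromosome 2, 102 on chromosome 4 and 141 on chromosome 13.

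Human centromeres are built on alpha satellite, a short DNA unit repeated in tandem over very long arrays, and the flanking pericentromeric DNA holds further satellite families and segmental duplications. A part of each array carries the histone H3 variant CENP-A, on which the kinetochore forms, while the surrounding repeats are packed into heterochromatin by histone H3 lysine methylation, HP1 proteins and DNA methylation. In the hg38 assembly the centromeric arrays are sequence models and not a base by base record, and a short read from a repeat can match many places. A count there therefore belongs to a family of copies more than to a single place, and the number of copies in a cell line need not equal that in the assembly. The deposited counts were all whole numbers, although the counting program was asked to split reads that map to several places. How the aligner placed such reads was not given in the sources used here. No repeat annotation or mappability track was used here, so the satellite label of the windows rests on position and was not checked base by base.

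The total count per library was 17954924 and 9112860 in shIRF4 and 12152153 and 13609123 in control. The cell line label was met by B cell markers: all 7 markers listed had an interval at a gene end, with 749 to 810 CPM (counts scaled to the library's size) summed per library in shIRF4 and 753 to 763 CPM in control. Of 5 T cell markers, 1 had a gene-end interval, with a sum of 3.16 to 4.29 CPM in shIRF4 and 1.93 to 2.01 CPM in control. Of 4 myeloid markers, 2 had one, with 19.5 to 21.3 CPM in shIRF4 and 17.3 to 19.5 CPM in control. Of 5 epithelial and fibroblast markers, 2 had one, with 20.6 to 21.4 CPM in shIRF4 and 19.4 to 20.2 CPM in control. CPM values here are divided by library size and a TMM scaling factor. Accessibility does not measure IRF4 mRNA, so the knockdown itself is not checked by these values.

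The windows differ in what the RefSeq table places in them. It lists no gene in the windows of chromosomes 1 and 13. It lists 40 genes, 32 of them pseudogenes, in the chromosome 2 window and 14 genes, 12 of them pseudogenes, in the chromosome 4 window, and 8 and 4 member intervals overlap one of these genes. The chromosome 1 window is crowded, with 163 intervals per Mb that cover 8.79% of its length, against 23.7 intervals per Mb and 1.88% over all chromosomes. The chromosome 13 window has 67.1 intervals per Mb, the chromosome 4 window 36.4 and the chromosome 2 window 10. In the chromosome 2 window a stretch of 1937117 bp between 92270986 and 94208104 holds no interval. Median length was 475 bp over the members (125 to 8062 bp) and 552 bp over all intervals. Read density per kb of interval, averaged over the 4 libraries, had a median of 9.54 CPM per kb in the members and 12.7 CPM per kb over all intervals. Segments of 0.5 Mb of the chromosome 1 window between 122.5 and 125.0 Mb were alike in density, from 8.86 to 9.89 CPM per kb, and the last segment, with the densest member of the 4 windows, had 112 CPM per kb.

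Summed over its intervals, every window had its lowest level in shIRF4 replicate 1. The chromosome 1 window summed to 3326 and 4675 CPM in shIRF4 and to 5125 and 4593 CPM in control. The groups overlap there, because shIRF4 replicate 2 lies between the control libraries. In every 0.5 Mb segment of this window before 125.0 Mb, both shIRF4 libraries were below both control libraries. From 125.0 Mb on, where the highest member lies, shIRF4 replicate 2 had 1837 CPM, against 1893 and 1665 CPM in control. The chromosome 13 window summed to 483 and 639 CPM in shIRF4 and to 746 and 681 CPM in control. The chromosome 4 window summed to 1092 and 1451 CPM in shIRF4 and to 1676 and 1616 CPM in control. The chromosome 2 window summed to 277 and 339 CPM in shIRF4 and to 406 and 414 CPM in control. On chromosomes 2, 4 and 13 both shIRF4 libraries were thus below both control libraries, with replicate 2 much nearer to the controls. Per kb of interval the same sums were 10.8 and 15.2 CPM in shIRF4 against 16.7 and 14.9 CPM in control on chromosome 1. They were 7.28 and 8.94 CPM per kb in shIRF4 against 10.7 and 10.9 CPM per kb in control on chromosome 2. On chromosome 4 they were 11.7 and 15.6 CPM per kb in shIRF4 against 18.0 and 17.4 CPM per kb in control, and on chromosome 13 they were 6.72 and 8.88 CPM per kb in shIRF4 against 10.4 and 9.47 CPM per kb in control.

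**Figure D1:**
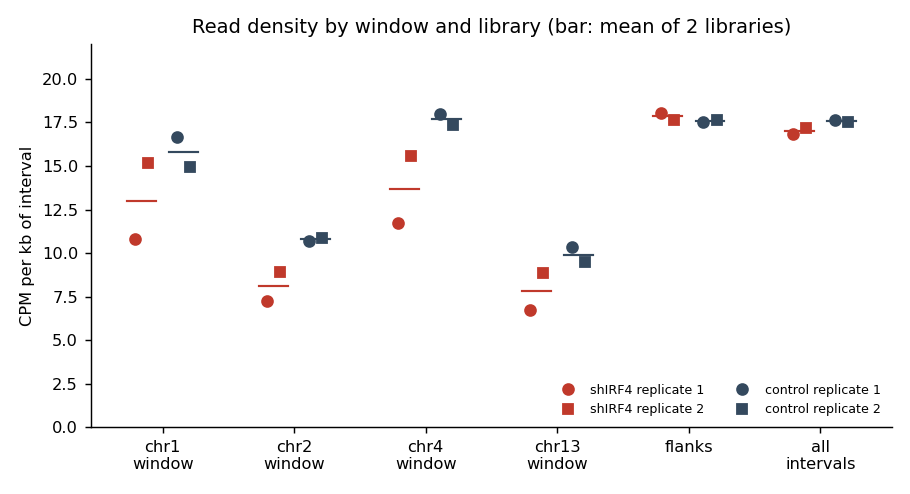
Summed CPM per kb of interval (y axis) in each window, in the flanks within 2 Mb of the windows and over all intervals (x axis), with 1 point per library and a bar at the mean of the 2 libraries of a group. In each window shIRF4 replicate 1 is the lowest point, while flanks and all intervals show the 4 libraries close together.

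The window sums were tested together with all other intervals summed in 1 Mb bins (edgeR quasi-likelihood test, Benjamini-Hochberg adjustment over 2862 windows and bins), of which 18.4% were lower and 8.91% higher in shIRF4. The chromosome 2 window fell, to a mean of 308 ± 44.5 CPM in shIRF4 against 410 ± 5.23 CPM in control (SD, n = 2; log2 fold change -0.42, SE 0.09, edgeR adjusted p = 0.0171). The other windows pointed the same way and did not pass. Chromosome 4 had 1272 ± 254 CPM in shIRF4 and 1646 ± 42.4 CPM in control (SD, n = 2; -0.37, SE 0.12, edgeR adjusted p = 0.0586). Chromosome 13 had 561 ± 110 CPM in shIRF4 and 713 ± 46.0 CPM in control (SD, n = 2; -0.35, SE 0.12, edgeR adjusted p = 0.0744). Chromosome 1 had 4000 ± 954 CPM in shIRF4 and 4859 ± 376 CPM in control (SD, n = 2; -0.28, SE 0.15, edgeR adjusted p = 0.194). Without its highest interval the chromosome 1 window had a log2 change of -0.33 and still did not pass (edgeR adjusted p = 0.114). On chromosome 2 the log2 change was -0.43 without control replicate 1 and -0.40 without control replicate 2. The call was lost when a control library was left out and kept when a shIRF4 library was left out. Such fits hold 1 library in a group, so their calls decide nothing either way. The size of the change was set largely by shIRF4 replicate 1: without it the log2 changes were -0.05 on chromosome 1, -0.15 on chromosome 13, -0.17 on chromosome 4 and -0.26 on chromosome 2, and without replicate 2 they were -0.55, -0.56, -0.59 and -0.57.

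As a share of all counts, the 4 windows together held 0.531% and 0.715% in shIRF4 and 0.780% and 0.721% in control. The difference of the means was -0.128 percentage points (exact permutation test over the 4 libraries, two-sided, p = 0.333, the smallest value that 2 against 2 can give). In a bulk sample, fewer cells with accessible copies and fewer cuts per cell cannot be told apart.

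In shIRF4 replicate 1 the raw counts of the windows did not follow the depth of the library. The other libraries lay nearer to their depth. There, shIRF4 replicate 2 held 0.687 times the raw count of control replicate 1 in the 4 windows, and 0.750 times over all intervals. Over all intervals, shIRF4 replicate 1 held 1.48 times the raw count of control replicate 1, and in the flanks 1.59 times. In the windows that ratio was 1.003 on chromosome 1, 1.05 on chromosome 2, 1.01 on chromosome 4 and 1.001 on chromosome 13. The 4 windows together had 95363 and 65114 raw counts in shIRF4 and 94804 and 98171 in control. The deepest library thus gave about the same number of window reads as either control library. Between the shIRF4 libraries, replicate 1 held 1.97 times the count of replicate 2 over all intervals and 1.47 times in the windows. Between the control libraries, which differ less in depth, replicate 1 held 0.893 times the count of replicate 2 over all intervals and 0.966 times in the windows. In both groups the deeper library had the lower CPM in the 4 windows together. The log2 ratio of CPM was -0.46 for shIRF4 replicate 1 over the shallower replicate 2, and 0.12 for control replicate 1 over the deeper replicate 2. On chromosome 2 alone the control libraries went the other way (-0.03). The shallowest library, shIRF4 replicate 2, lay below both controls in 3 windows. Reads marked as duplicates were left out of the counts by the authors, per the file headers, and the part of that step, of read placement and of library depth in the difference was not tested.

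**Figure D2:**
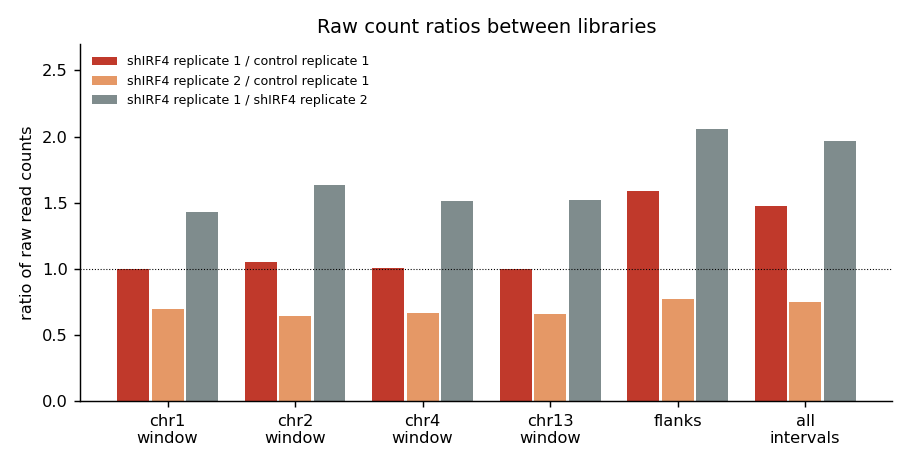
Ratio of summed raw counts (y axis, linear from 0) between pairs of libraries, for each window, the flanks and all intervals (x axis); the dotted line marks a ratio of 1. The ratio of shIRF4 replicate 1 to control replicate 1 is 1.001 to 1.05 in the windows and 1.48 over all intervals.

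At single intervals the same order was common, and least so on chromosome 2. Of 854 members, 742 (86.9%) had their lowest CPM in shIRF4 replicate 1, against 27.3% of all intervals. The count was 504 of 571 (88.3%) on chromosome 1, 90 of 102 (88.2%) on chromosome 4, 122 of 141 (86.5%) on chromosome 13 and 26 of 40 (65.0%) on chromosome 2. On chromosome 2, 6 members (15.0%) were above both controls in shIRF4 replicate 1, against 41.2% of all intervals. In shIRF4 replicate 1, 798 members (93.4%) lay below both control libraries, against 40.1% of all intervals. In shIRF4 replicate 2, 467 members (54.7%) lay below both controls, against 41.1% of all intervals. A further 237 (27.8%, against 19.6%) lay between the controls and 150 (17.6%, against 39.3%) above both. The groups did not overlap, with shIRF4 lower, at 458 members (53.6%), against 30.3% of all intervals, and with shIRF4 higher at 8 members (0.937%), against 28.7% of all intervals. The filter on low counts kept 842 members and removed 12. Of those kept, 211 (25.1%) were called lower by edgeR at an adjusted p under 0.05, against 15.5% of all 73028 tested intervals. None was called higher by edgeR, against 7.27% of all tested intervals; at an unadjusted p under 0.05, 1 member was higher (0.119%, against 13.1% of all) and 418 were lower (49.6%, against 21% of all), and DESeq2 called 0 higher, against 1.17% of all. The median log2 fold change of the members was -0.40 and that of all tested intervals 0.01.

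The count of called members depends on single libraries. Without shIRF4 replicate 1, 21 of 850 tested members (2.47%) were lower, against 8.79% of all intervals in that fit. Without shIRF4 replicate 2, 458 of 848 (54.0%) were lower, against 18.0% of all. Without control replicate 1, 84 were lower (9.92%, against 10.5% of all), and without control replicate 2, 157 (18.5%, against 11.1%). In these 4 fits 0 members were higher, against 3.58% of all intervals without shIRF4 replicate 1, 9.41% without shIRF4 replicate 2, 3.96% without control replicate 1 and 3.87% without control replicate 2. DESeq2 called 8 members lower, which is 0.950% against 5.09% of all tested intervals. They were 6 of 40 on chromosome 2 (15.0%) and 2 of 100 on chromosome 4 (2.00%), with 0 on chromosomes 1 and 13. The pooled counts are weighted to chromosome 1, which has 565 of the 842 tested members. Without shIRF4 replicate 1 the median log2 change was -0.12 on chromosome 1, -0.22 on chromosome 2, -0.18 on chromosome 4 and -0.14 on chromosome 13. Against a change of at least 1.5-fold, 2 members passed as lower (0.238%, against 3.31% of all) and 0 as higher (against 0.641% of all).

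**Figure D3:**
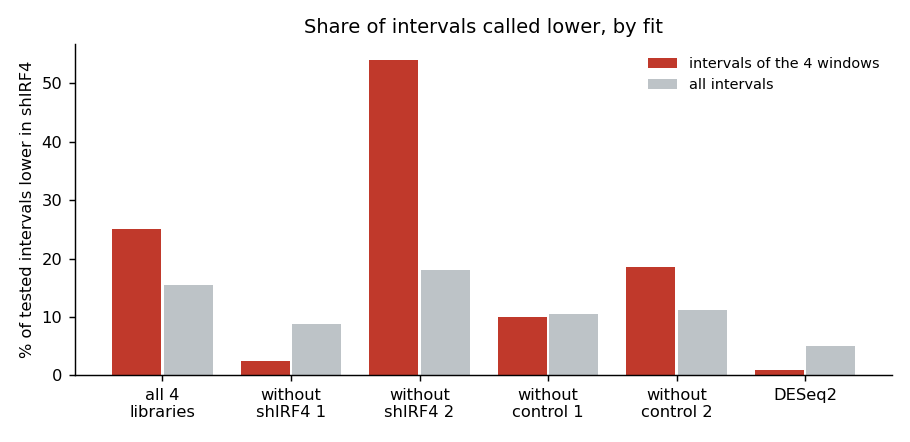
Share of tested intervals called lower in shIRF4 (y axis, percent) for the members of the 4 windows (red, left) and for all intervals (grey, right), with all 4 libraries, with each library left out, and by DESeq2. The members stand at 25.1% with all libraries, 2.47% without shIRF4 replicate 1 and 54.0% without shIRF4 replicate 2.

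Over the 4 windows together, the median fold change was nearly the same at sparse and at dense members. Split into 5 classes of equal size by the read density of all intervals, the members had a median log2 fold change of -0.41, -0.40, -0.40, -0.44 and -0.40 from the sparsest to the densest class, with 411, 229, 110, 71 and 33 members in them. The other intervals of the same classes had medians of -0.09, -0.01, 0.02, 0.02 and 0.04. The log2 ratio of shIRF4 replicate 1 to replicate 2 had medians of -0.41, -0.44, -0.40, -0.45 and -0.48 in the members of these classes and -0.09, -0.01, 0.02, 0.03 and 0.02 in the other intervals. Over the 842 tested members, the rank correlation of fold change with density was 0.01 and with length 0.06. The chromosome 2 window differed, with 0.41 for density and -0.42 for length over its 40 members. These points share libraries and are given as a description.

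**Figure D4:**
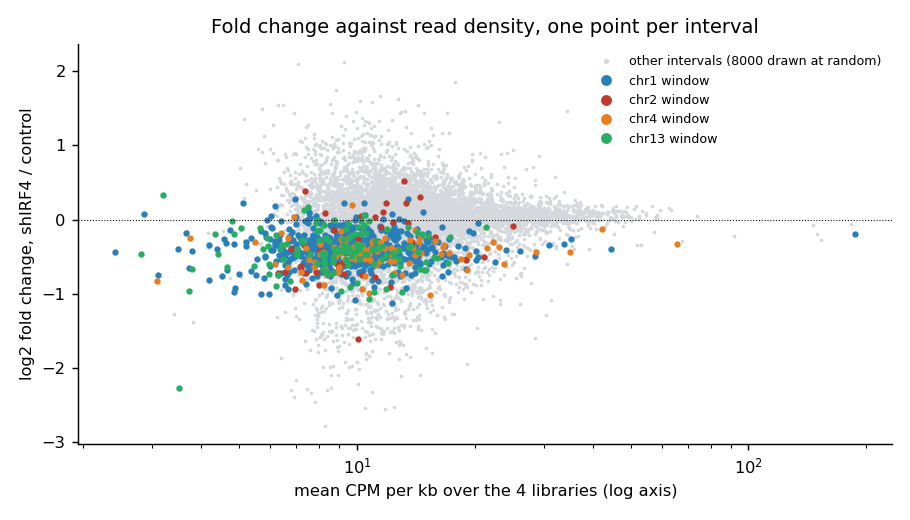
Log2 fold change of shIRF4 over control (y axis) against the mean CPM per kb over the 4 libraries (x axis, log scale), with 1 point per tested interval; grey points are 8000 other intervals drawn at random. The members form a band around a median of -0.40 at all densities, with few points above 0.

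The chromosome 1 window has the most members. Of its 565 tested members, 116 (20.5%, against 15.5% of all tested intervals) were lower, and the median log2 fold change was -0.40. Its densest and longest member (125176550 to 125184611, 8062 bp), at the last edge of the window, had 1143 and 1684 CPM in shIRF4 and 1721 and 1503 CPM in control. It held 21049 and 15440 reads in shIRF4 and 20510 and 20197 in control, of 61261 and 42853 reads of the window in shIRF4 and 61091 and 61740 in control. Here shIRF4 replicate 2 lay between the controls, so the groups overlap. Its difference did not pass (-0.19, SE 0.10, edgeR adjusted p = 0.162). A neighbour at 125166693 to 125169348 had 67.9 and 92.7 CPM in shIRF4 and 102 and 97.2 CPM in control and fell (-0.33, SE 0.09, edgeR adjusted p = 0.00829).

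Inside the array of chromosome 1, levels were far lower. An interval at 124098476 to 124099255, among the 3 highest of the window, had 21.3 and 29.3 CPM in shIRF4 and 31.3 and 27.7 CPM in control (-0.26, edgeR adjusted p = 0.0952). A short interval of 268 bp at 122528388, among the densest, had 8.63 and 12.5 CPM in shIRF4 and 15.0 and 11.6 CPM in control (-0.39, edgeR adjusted p = 0.0701). Both follow the order of the window, with shIRF4 replicate 1 apart. In the 3 members named for the smallest p, a choice that favours clear separation of the groups, both shIRF4 libraries lay below both controls. At 124643783 to 124644033 the values were 1.79 and 2.18 CPM in shIRF4 against 4.28 and 4.09 CPM in control (-1.12, SE 0.23, edgeR adjusted p = 0.00111). At 122971444 to 122972351 they were 5.37 and 5.78 CPM in shIRF4 against 9.65 and 8.33 CPM in control (-0.70, SE 0.16), and at 124767629 to 124768174 they were 2.33 and 2.73 CPM in shIRF4 against 4.95 and 4.54 CPM in control (-0.94, SE 0.22).

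Chromosome 13 is acrocentric, with its centromere next to a short arm that carries ribosomal DNA. Of its 137 tested members 31 (22.6%, against 15.5% of all tested intervals) were lower, with a median of -0.41. Its highest member, the interval at 17542019 to 17543811, had 11.2 and 16.6 CPM in shIRF4 and 19.5 and 16.4 CPM in control (-0.44, SE 0.14, edgeR adjusted p = 0.0246), so that shIRF4 replicate 2 lay just above the lower control. The intervals at 16236086 and 16250620 fell by 0.48 and by 0.34 on the log2 scale. Both shIRF4 libraries were close together at 17574910 to 17575457, with 3.91 and 3.93 CPM in shIRF4 and 6.88 and 7.22 CPM in control (-0.85, SE 0.18, edgeR adjusted p = 0.00106). At 16230060 to 16231445 the values were 5.92 and 7.42 CPM in shIRF4 and 10.6 and 11 CPM in control (-0.74, SE 0.15). The largest fitted fall of the members, at 17033639 to 17033794, rests on 3 and 2 reads in shIRF4 and 10 and 13 reads in control (-2.26, SE 0.44, edgeR adjusted p = 0.000536). The 3 densest members, at 17682979, 16752393 and 17920943, did not pass, with log2 fold changes of -0.10, -0.23 and -0.58.

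On chromosome 4 the members gather at the near end of the window. Of 102 members, 73 lie between 49.0 and 49.5 Mb and 23 between 49.5 and 50 Mb, and 86 stand in 5 runs of neighbouring intervals, defined as at least 5 intervals with gaps of at most 2 kb. The definition uses positions alone but was chosen after the values were seen. Of the 100 tested members 44 (44.0%, against 15.5% of all tested intervals) were lower, with a median of -0.43. The highest, at 49708132 to 49711989, had 193 and 256 CPM in shIRF4 and 302 and 260 CPM in control and fell (-0.33, SE 0.08, edgeR adjusted p = 0.00519). The longest, of 6247 bp at 49510128, had 109 and 145 CPM in shIRF4 and 160 and 163 CPM in control (-0.36, SE 0.08). An interval of 3973 bp at 49107105 had 65.2 and 84.7 CPM in shIRF4 and 98.1 and 94.0 CPM in control (-0.38, SE 0.08). In each of these 3, shIRF4 replicate 2 was below both controls by a small margin and replicate 1 by a large one. The smallest p belonged to the interval at 49284411 to 49287677, with 27.5 and 31.9 CPM in shIRF4 and 40.4 and 40.2 CPM in control (-0.46, SE 0.08, edgeR adjusted p = 0.000241). The intervals at 49315674 and 49096743 fell by 0.45 and by 0.46 on the log2 scale. Short dense members at 50556054 (12.0 and 13.9 CPM in shIRF4, 14.7 and 13 CPM in control) and 49657490 (6.13 and 11.2 CPM in shIRF4, 10.6 and 11.1 CPM in control) did not pass.

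On chromosome 2 the members varied most. A run of 16 intervals between 91498430 and 91528390 summed to 133 and 190 CPM in shIRF4 and to 236 and 249 CPM in control. Of the 16, 15 were lower (93.8%, against 15.5% of all intervals), with a median log2 fold change of -0.70. Against the control mean the run lay at -0.86 in shIRF4 replicate 1 and at -0.35 in replicate 2, so that replicate 2 stood further from the controls here than in any of the 5 runs on chromosome 4 or the 3 on chromosome 13 (-0.26 to -0.15). The other 24 members of the window had a median of -0.09, and 5 of them were lower (20.8%, against 15.5% of all intervals). These 24 were mixed: the 3 members between 94.0 and 94.5 Mb had a median of -0.62, with 2 lower, and the 7 between 94.5 and 95.0 Mb a median of -0.10, with 1 lower. Over all 24, the median log2 ratio of shIRF4 replicate 1 to replicate 2 was -0.02, against -0.49 in the run. The run was picked out after its values were seen, and the difference between the run and the rest was not tested.

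Within the run, the longest interval (91514419 to 91520655, 6237 bp) had 38.2 and 55.1 CPM in shIRF4 and 65.6 and 70.8 CPM in control (-0.59, SE 0.10, edgeR adjusted p = 0.000184). The interval at 91498430 to 91500280 had 13 and 18.1 CPM in shIRF4 and 25.8 and 25.1 CPM in control (-0.77, SE 0.12, edgeR adjusted p = 3.61e-05). At 91508030 to 91509350 the values were 6.46 and 8.84 CPM in shIRF4 and 11.9 and 15.0 CPM in control (-0.89, SE 0.15). All 3 had both shIRF4 libraries below both controls.

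The member with the smallest p of all 4 windows lies beyond the run and outside any run. At 91550488 to 91551021 it had 48 and 25 reads in shIRF4 and 102 and 102 in control, which is 2.61 and 2.73 CPM in shIRF4 against 8.56 and 7.59 CPM in control (log2 fold change -1.60, SE 0.19, edgeR adjusted p = 1.76e-06). The shIRF4 libraries lay together there, and the change was between -1.69 and -1.52 with any library left out. Apart from the chromosome 13 interval of few reads, it was the only member that passed against a 1.5-fold change, and DESeq2 also had it past the threshold.

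Of the 8 members of the chromosome 2 window at RefSeq genes 1 was lower (12.5%, against 15.5% of all intervals), and of the other 32 members 19 were (59.4%). The run of 16 intervals, 15 of them lower, lies wholly among these 32. The difference between members at genes and the others therefore largely repeats the run, and it was not tested. The interval at 91659388 to 91660351, in the pseudogene LSP1P4, was the densest of the window, with 22.8 and 24.2 CPM in shIRF4 and 24.6 and 25.1 CPM in control (-0.09, SE 0.09, edgeR adjusted p = 0.519). An interval of 661 bp at 94873984, in the sperm tail gene TEKT4, had 8.96 and 7.85 CPM in shIRF4 and 7.38 and 7.22 CPM in control (0.23, SE 0.15, edgeR adjusted p = 0.290). At LSP1P4 both shIRF4 libraries lay just below both controls, and at TEKT4 both lay above them. The interval at 91565700 to 91569260 fell (23.5 and 22.6 CPM in shIRF4, 30.4 and 28.6 CPM in control; -0.35, SE 0.09). So did a member at 94505415 (-0.55, SE 0.16), while the single member between 92.0 and 92.5 Mb, at 92270807, did not pass (-0.50, edgeR adjusted p = 0.114).

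**Figure D5:**
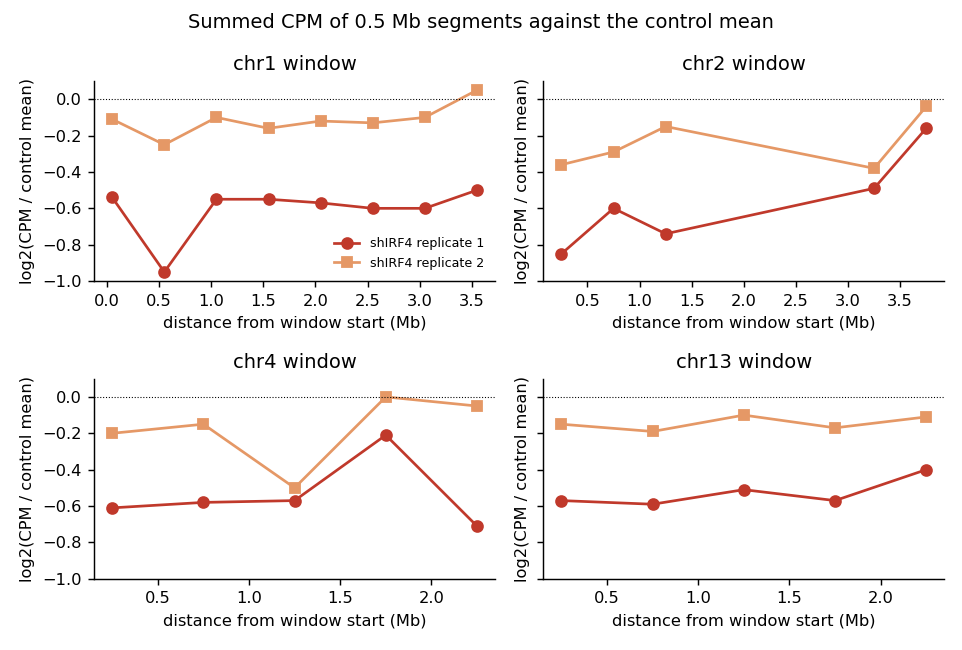
Log2 ratio of summed CPM in each shIRF4 library to the control mean (y axis) for segments of 0.5 Mb, by distance of the segment centre from the start of the window in Mb (x axis). In the chromosome 1 window replicate 1 lies between -0.95 and -0.50 and replicate 2 between -0.25 and 0.05.

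Along most segments of the chromosome 1 and 13 windows the gap between the shIRF4 libraries was steady. The 5 segments of chromosome 1 between 122.5 and 125.0 Mb lay at -0.60 to -0.55 in shIRF4 replicate 1 and at -0.16 to -0.10 in replicate 2, both against the control mean. The 4 segments of chromosome 13 between 16 and 18 Mb lay at -0.59 to -0.51 in replicate 1 and at -0.19 to -0.10 in replicate 2. Some other segments differed. On chromosome 1 replicates 1 and 2 lay at -0.95 and -0.25 from 122.0 Mb (2 intervals), and at -0.50 and 0.05 from 125.0 Mb (7 intervals). On chromosome 13 they lay at -0.40 and -0.11 from 18.0 Mb (3 intervals). At the far end of the chromosome 2 window, between 94.5 and 95.0 Mb, the libraries came together, at -0.16 in replicate 1 and -0.04 in replicate 2.

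The 363 intervals within 2 Mb outside the windows on the same chromosomes did not show the pattern. Their sums were 4418 and 4321 CPM in shIRF4 and 4289 and 4317 CPM in control, and their log2 changes per chromosome lay between -0.04 and 0.05 with edgeR adjusted p from 0.20 to 0.757. Of the 361 tested, 42 (11.6%, against 15.5% of all tested intervals) were lower and 24 (6.65%, against 7.27%) higher. The log2 ratio of a window to its flanks was lower in shIRF4 than in control on all 4 chromosomes, by -0.29 on chromosome 1, -0.45 on chromosome 2, -0.44 on chromosome 4 and -0.32 on chromosome 13. The exact permutation test gave p = 0.333 for chromosomes 2, 4 and 13, the smallest it can give, and p = 0.667 for chromosome 1 (two-sided).

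Calls that remained whichever library was left out were fewer among the members than over all intervals. Those fits hold 1 library in a group, so the calls are given as a description and not as firmer support. Of 842 tested members 16 (1.90%) were lower with all libraries and in each of the 4 fits without 1 library, against 6.62% of all tested intervals. These 16 lower intervals comprised 7 of 40 on chromosome 2 (17.5%), of which 6 belong to the run and the other is the interval at 91550488. The others were 4 of 100 on chromosome 4, 3 of 565 on chromosome 1 and 2 of 137 on chromosome 13. Of these, the intervals at 123356481 on chromosome 1 (1.74 and 1.64 CPM in shIRF4, 3.52 and 3.35 CPM in control) and at 49156398 on chromosome 4 (1.85 and 1.64 CPM in shIRF4, 3.69 and 3.50 CPM in control) had the lowest levels. At 124283243 on chromosome 1 the values were 2.71 and 2.29 CPM in shIRF4 and 4.70 and 4.61 CPM in control. At these 3 the lower of the 2 shIRF4 libraries was replicate 2, with 15, 15 and 21 reads, unlike in most members. The condition of a call without shIRF4 replicate 1 favours intervals that are low in replicate 2.

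Genes that build or pack centromeric chromatin were counted from a list of 28, among them CENPA, which encodes the centromeric histone, CENPB, whose protein binds alpha satellite, SUV39H1 and SUV39H2, which encode the methyltransferases of pericentromeric heterochromatin, and CBX5, which encodes an HP1 protein. Of 45 intervals in or within 1 kb of these genes 2 were lower (4.44%, against 15.5% of all intervals), 1 was higher (2.22%, against 7.27%) and 42 were not called, with a median of 0.07. Both lower intervals were in DNMT1, the maintenance DNA methyltransferase gene, where 2 more intervals were not called. The larger fall, on chromosome 19 at 10167422 to 10167816, had 1.68 and 2.40 CPM in shIRF4 and 4.95 and 3.79 CPM in control (-1.17, SE 0.25, edgeR adjusted p = 0.00123). In DNMT3B, the de novo DNA methyltransferase gene, whose loss leaves pericentromeric satellites undermethylated in people, 3 intervals were not called and 1 was higher. On chromosome 20 at 32792252 to 32792670 it had 6.57 and 4.04 CPM in shIRF4 and 2.85 and 3.27 CPM in control (0.88, SE 0.23, edgeR adjusted p = 0.00632).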

How the data were processed

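ATAC-seq counts of 2 shIRF4 and 2 control libraries were used. The authors deposited raw counts of reads per merged peak, made with featureCounts 2.0.0 with each read reduced to its 5' end, duplicates ignored, paired-end reading and fractions of multi-mapping reads requested, per the file headers. All deposited counts were whole. Coordinates are on hg38, as the submitters' processing notes list it. For the aligner, the caller of peaks and any shift of read ends, the tool was not given in the sources used here.

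Counts were fitted for all intervals with edgeR 4.0.16 (limma 3.58.1, R 4.3.3): filterByExpr by group, which removed 107 intervals, TMM factors (0.981 to 1.03), glmQLFit with legacy=FALSE, and glmQLFTest with the group as the only term (two-sided). The Benjamini-Hochberg adjustment ran over all intervals, with a threshold of 0.05. The SE is the log2 fold change divided by the square root of F. Window sums were fitted with 1 Mb bins of the remaining intervals, with the same scaling. CPM values use the TMM-scaled library sizes. Scripts were tested on simulated data. DESeq2 1.42.0 was an alternative, as were other scalings, no filter, each library left out and moved window edges.

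Named intervals are, per window, the 3 of highest level, the 3 densest, the longest and the 3 of smallest p among those called in each direction; others named in the text were chosen after their values were seen. The members, lists and tests were chosen with earlier results of these data known. Gene positions came from RefSeq (GRCh38.p14).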

Additional observations from a re-analysis of the deposited data

How the results depend on the processing

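Every alternative kept the direction of all 4 window sums. With 1 library left out, the log2 change ranged from -0.55 to -0.05 on chromosome 1, -0.57 to -0.26 on chromosome 2, -0.59 to -0.17 on chromosome 4 and -0.56 to -0.15 on chromosome 13. In those fits a lone library of a group is assumed to vary like the pair of the other group, so their p-values are not read as support. The replicate block (replicate number as a term) gave -0.30, -0.42, -0.39 and -0.36 for chromosomes 1, 2, 4 and 13, and all 4 passed (edgeR adjusted p = 0.0389, 2.15e-05, 0.000968 and 0.00332). It called 227 members (27%, against 15.6% of all intervals). Nothing in the labels pairs the numbers, and the deviations of same-numbered libraries from their group means correlated at -0.0262 over intervals. Fitted with single intervals in place of bins, the sums of chromosomes 1, 4 and 13 also passed, with unchanged log2 values of -0.28, -0.37 and -0.35. With library totals only, chromosomes 4 and 13 passed (-0.33 and -0.31). In DESeq2 chromosome 2 alone passed (-0.41, DESeq2 adjusted p = 0.0411). Chromosomes 1, 4 and 13 had -0.27, -0.37 and -0.34 there (DESeq2 adjusted p = 0.496, 0.233 and 0.286). The cause was not tested.

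The count of 211 members became 8 in DESeq2, 2 when tested against 1.5-fold, and between 21 and 458 in the fits without 1 library. Of the 32 named intervals 22 were called, and 5 in DESeq2 and 11 to 27 with 1 library left out. The share of the windows differed by -0.22 to -0.0362 percentage points with 1 library left out. Over the 32 named intervals 288 alternative values were computed: 233 kept direction and side of the threshold, 36 lost and 12 gained the call, and 7 changed sign. Sign changes came with a library left out at 124098476 (-0.47 to 0.01) and 125176550 (-0.50 to 0.07) on chromosome 1, 16752393 (-0.48 to 0.16) and 17682979 (-0.35 to 0.18) on chromosome 13, and 49657490 (-0.82 to 0.06) and 50556054 (-0.20 to 0.02) on chromosome 4; none of them was called with all libraries. Members of few reads, such as those under 1 CPM, are limited by counting error.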

Other observations

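Other places in the genome shared the order of libraries seen in the windows. Among 1996 bins of 1 Mb with at least 4000 counts over the 4 libraries, the log2 ratio of shIRF4 replicate 1 to replicate 2 had a median of 0.03, and its lowest 1% lay below -0.41. The chromosome 1 window stood at -0.49, with 7 bins below it, and the windows of chromosomes 4, 13 and 2 stood at -0.41, -0.40 and -0.30, with 21, 23 and 35 bins below them. The bins named next were chosen after their values were seen. Several of the lowest lie near other centromeres, such as chromosome 5 from 49 to 50 Mb (20621 and 14354 raw counts in shIRF4, 20662 and 21087 in control), chromosome 12 from 37 to 38 Mb (6430 and 4450 in shIRF4, 6310 and 6609 in control) and chromosome 20 from 26 to 27 Mb (2503 and 1661 in shIRF4, 2435 and 2533 in control). As in the windows, the deepest library had about as many raw reads there as the controls. Not all of the lowest bins were of this kind. Chromosome 3 from 96 to 97 Mb had 7038 and 5132 raw counts in shIRF4 and 6097 and 6212 in control. Chromosome 13 from 109 to 110 Mb had 8082 and 5513 in shIRF4 and 7103 and 7370 in control. Chromosome 5 from 80 to 81 Mb had 20187 and 13598 in shIRF4 and 16575 and 17441 in control. In these bins shIRF4 replicate 1 held more raw reads than either control library.

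Another of the lowest bins lies at the start of chromosome 1, where the interval at 629035 to 634971 falls in a stretch known to be a nuclear copy of mitochondrial DNA. It had 217146 and 159338 raw counts in shIRF4 and 187945 and 193155 in control. In CPM it had 11788 and 17383 in shIRF4 and 15767 and 14370 in control, so that shIRF4 replicate 1 was lowest and replicate 2 was above both controls (log2 fold change -0.05, SE 0.09, edgeR adjusted p = 0.764).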
